A study of Mus musculus with 12 samples.

Results

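The 8 genes described here encode the late regulators of fat cell differentiation and factors that act with them: Pparg, Cebpa, Rxra, Klf15, Ebf1, Ebf2, Med1 and Zfp467. They were taken by their symbols from a table of 39423 mouse genes, and each symbol matched 1 row. RNA was sequenced from 3T3-L1 cells, a mouse preadipocyte line, that carried a nontargeted control siRNA (labelled NC, called siCtrl here) or siRNA against PRMT1 (labelled siPRMT1). All of these cells had reached confluence and received DMI, a mixture of dexamethasone, isobutylmethylxanthine and insulin, for 24 h (day 1) or 72 h (day 3), so the controls are differentiating cells and not untreated preadipocytes. Each of the 4 conditions had 3 libraries, 12 in all. PRMT1 is an enzyme that places asymmetric dimethyl marks on arginines of histones and other proteins.

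In fat cell differentiation, C/EBPβ and C/EBPδ rise first and switch on Pparg and Cebpa, whose products then maintain each other's expression and turn on the genes of lipid storage. PPARγ binds DNA as a dimer with the retinoid X receptor RXRα, which Rxra encodes. MED1 is the Mediator subunit through which nuclear receptors such as PPARγ contact the transcription machinery. EBF1 and EBF2 are DNA-binding factors of preadipocytes that act upstream of and beside PPARγ, KLF15 is a zinc finger factor that appears with the adipocyte programme, and ZFP467 is a zinc finger protein that favours the adipocyte over the osteoblast fate.

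Total counts on genes ran from 15116462 to 42357137 per library. Prmt1, the targeted gene, averaged 85.9 ± 4.71 FPKM (counts scaled to gene length and library total; SD, n = 3) in the day 1 controls and 41.3 ± 2.61 FPKM with siPRMT1, and 124 ± 15.1 against 67.4 ± 4.92 FPKM at day 3. Its log2 fold changes were -1.11 (adjusted p = 9.8e-04) and -0.88 (adjusted p = 1.2e-05), so transcript remained in the knockdown cells at both days. The cell line was checked against its markers: among the 8 preadipocyte markers, Pdgfra ran from 16.95 to 68.2 FPKM and Col1a1 from 127 to 300.1 FPKM over the libraries, while Cd34 ran only from 0.03 to 0.68 FPKM. Ptprc of macrophages and Myod1 of muscle were at 0 FPKM in every library, and other markers of these types, Cd14 (up to 4.42 FPKM), Cd68 (up to 2.35 FPKM) and Des (up to 6.53 FPKM), were not.

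The upstream sequences of the 3 members called lower in siPRMT1 cells are shown first, because the expression results below turn on these genes. The sequences come from RefSeq on GRCm38.p6, are written 5′ to 3′ on the + strand, and hold the 250 bases before a transcription start. RefSeq promoter windows were found for 7 of the 8 members, and Ebf2 is named only. Pparg has 3 windows, all within the span listed for the gene. The third is shown, which is the only one with a match to the C/EBP element named below. Counts were per gene, so transcripts from the 3 starts cannot be told apart here. Capitals mark matches to TTGCNNAA, a core of C/EBP elements, or to GGGGCGGGG, an element of the KLF and Sp factors, searched on both strands.
Pparg, chr6:115421816-115422065: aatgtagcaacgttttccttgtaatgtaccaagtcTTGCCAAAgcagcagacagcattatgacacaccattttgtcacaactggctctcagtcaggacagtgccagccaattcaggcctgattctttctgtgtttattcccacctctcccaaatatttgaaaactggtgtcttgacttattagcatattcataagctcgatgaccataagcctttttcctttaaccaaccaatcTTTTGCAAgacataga
Cebpa, chr7:35119043-35119292: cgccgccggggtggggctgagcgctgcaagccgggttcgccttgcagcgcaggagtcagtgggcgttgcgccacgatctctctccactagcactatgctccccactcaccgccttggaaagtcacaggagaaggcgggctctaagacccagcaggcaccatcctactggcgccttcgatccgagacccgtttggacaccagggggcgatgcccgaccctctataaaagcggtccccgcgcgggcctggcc
Klf15, chr6:90462326-90462575: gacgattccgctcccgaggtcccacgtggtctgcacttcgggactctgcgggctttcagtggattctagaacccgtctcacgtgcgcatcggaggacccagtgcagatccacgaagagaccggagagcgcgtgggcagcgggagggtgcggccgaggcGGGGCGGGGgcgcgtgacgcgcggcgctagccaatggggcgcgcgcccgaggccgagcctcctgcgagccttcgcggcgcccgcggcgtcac

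The Pparg stretch held TTGCNNAA at 2 places, as TTGCCAAA with its first base at -215 from the start and as TTTTGCAA at -16. Pparg was the only one of the 7 members with a match to this element in a window of 300 bases (250 before and 50 after the start), and 12.2% of all 27025 genes with a window had one. Only the third of its windows had such a match. All these genes together had 32851 windows, so a gene with 3 had more places for a match. The KLF and Sp element was present in windows of 3 of the 7 members, Pparg, Rxra and Klf15, and in those of 12.9% of all genes. In Pparg this element lay in the second window, at -212, which is not shown. Its match in Klf15 began at -92. Neither the direct repeat bound by PPAR and RXR nor the EBF element had a match in the windows of the 7 members, and they were found in 0.451% and 1.06% of genes. For chromatin, the reverse primers that the study labelled PPARγ promoter and CEBP/α promoter matched exactly within the Pparg and Cebpa stretches above. They lay on the opposite strand, at chr6:115421832-115421851 and chr7:35119191-35119210. Their forward primers and the pair labelled PPARγ2 promoter had no exact match in the windows of the members. Matches describe letters only, and no binding was measured here.

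At day 1 of DMI, 2 of the 7 members that passed the filter on low counts were called lower in siPRMT1 cells, Pparg and Cebpa, and 0 were called higher, also by DESeq2, although Med1 was higher at an unadjusted p under 0.05. A call needed an adjusted p under 0.05 in edgeR's quasi-likelihood test and a log2 fold change over 0.5 in size. Among all 13689 genes of that fit, 1.61% were called lower and 1.95% higher. These and the later shares of all genes called are edgeR's, and none is given for DESeq2. At day 1 the paper called more genes by DESeq2 at these thresholds than edgeR called here. At day 3, 1 of 8 members was called lower, Klf15, against 3.8% of the 14039 genes tested, and 0 were called higher, against 2.84%, by either tool, with 0 higher at an unadjusted p under 0.05. Pparg and Cebpa were again lower at day 3 at the adjusted p, with changes under the fold threshold, which makes 3 of 8 members lower at the adjusted p alone, against 8.94% of genes. The FPKM values of the 3 siPRMT1 and 3 siCtrl libraries did not overlap for 5 members at day 1 (Pparg, Cebpa, Rxra, Ebf1 and Med1) and for 4 at day 3 (Pparg, Cebpa, Klf15 and Zfp467), while 31.7% and 34.2% of all genes tested did not overlap. The labels do not say whether the 3 libraries of a condition came from separate cultures, so the p-values measure the spread between these libraries, which may be technical. An exact two-sided permutation test of 3 against 3 libraries cannot go below p = 0.1, and every member whose FPKM did not overlap reached that p.

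**Figure D1:**
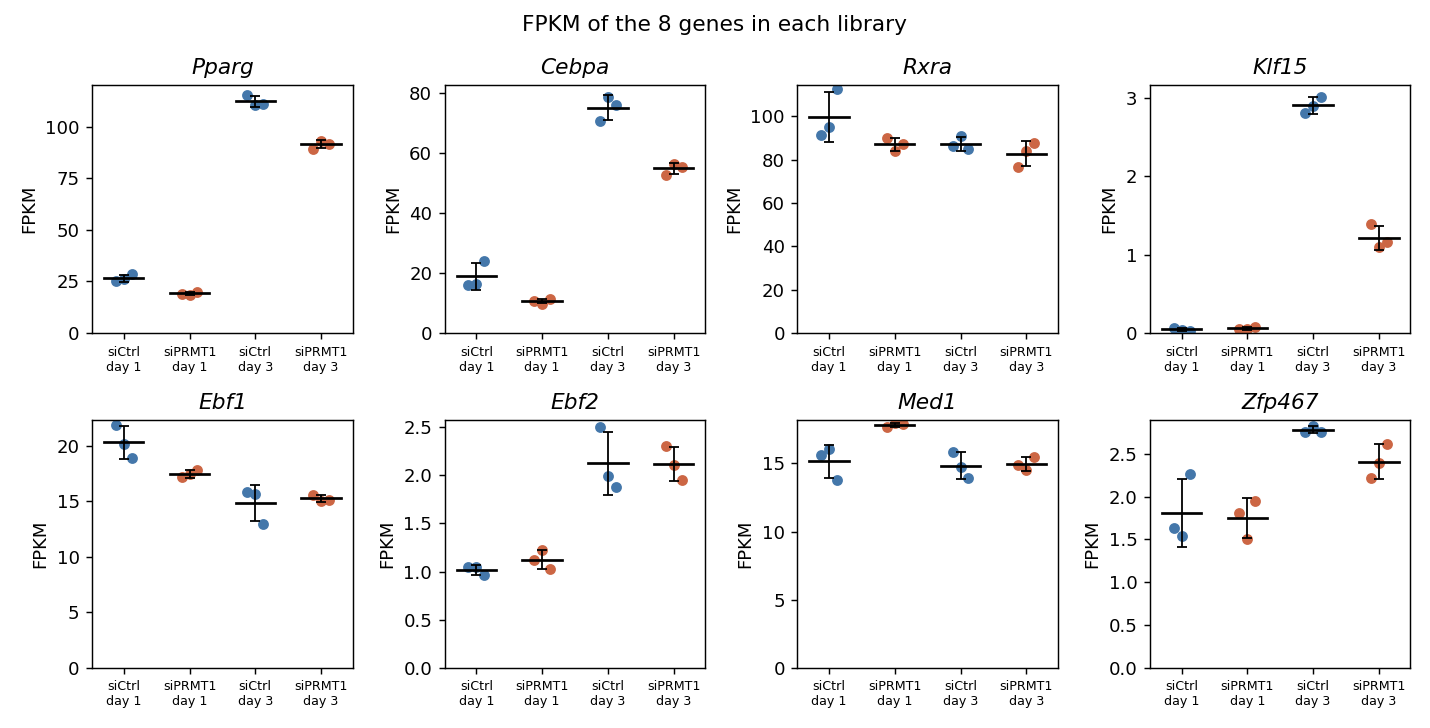
FPKM (vertical axis, linear from 0, own scale in each panel) of the 8 members in the 3 libraries of each condition, with siCtrl in blue and siPRMT1 in orange. Points are libraries, horizontal lines are means and bars are SD. Pparg and Cebpa rise from day 1 to day 3 and lie lower in siPRMT1 cells at both days, Klf15 is close to 0 at day 1 and falls from a mean of 2.91 to 1.22 FPKM with siPRMT1 at day 3, and Med1 stays between 13.8 and 18.0 FPKM.

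Pparg, the master regulator of fat cell differentiation, lies at chr6:115360877-115490404 on GRCm38. In siCtrl cells at day 1 it was at 25, 26.3 and 28.4 FPKM, and in siPRMT1 cells at 18.8, 18.6 and 20.1 FPKM. Every siPRMT1 library was below every siCtrl library, and the mean fell by 27.8%. On the counts, the log2 fold change was -0.52 (SE 0.072, adjusted p = 0.00659, edgeR). By day 3, Pparg stood at 115, 110 and 111 FPKM in siCtrl cells and at 89.3, 93.1 and 91.7 FPKM in siPRMT1 cells. The groups again did not overlap, the mean fell by 18.6%, and the log2 fold change was -0.30 (SE 0.063, adjusted p = 0.00407, edgeR), under the fold threshold of a call. From day 1 to day 3 this change moved by 0.24, with a 95% interval from 0.05 to 0.43 and an adjusted p of 0.0960 over all genes, which missed the threshold (0.15 without siCtrl day 1 replicate 3). The day 1 call lay close to the fold threshold: without siCtrl replicate 3 the log2 fold change was -0.48 at an adjusted p of 1.2e-04, and Pparg was no longer called. Over the 6 fits that left out 1 library, its adjusted p ran from 1.2e-04 to 0.0453, and in the 3 limma fits on FPKM the log2 fold change was -0.45 to -0.47, also under the fold threshold.

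Cebpa, at chr7:35119293-35121928, encodes the factor that sustains Pparg expression and confers insulin sensitivity on fat cells. At day 1 it was at 16.2, 16.3 and 24.1 FPKM in siCtrl cells and at 10.8, 9.78 and 11.2 FPKM in siPRMT1 cells. siCtrl replicate 3 stood above the other control libraries, and all 3 siPRMT1 libraries were below all controls. The mean fell by 43.9%, and the log2 fold change was -0.88 (SE 0.152, adjusted p = 0.0156, edgeR), the lowest of the 7 members tested at day 1. Without siCtrl replicate 3 it was -0.68 at an adjusted p of 5.8e-05. Without siPRMT1 replicate 1, 2 or 3 the size held at -0.92, -0.85 and -0.92, but the adjusted p rose to 0.0659, 0.0682 and 0.0822 and the call was lost, as it was in limma without a filter (adjusted p = 0.0894). At day 3 Cebpa had risen to 70.5, 78.6 and 76.1 FPKM in siCtrl cells and to 52.8, 56.4 and 55.3 FPKM in siPRMT1 cells. The groups did not overlap, and the mean fell by 27.0%. Here the log2 fold change was -0.46 (SE 0.071, adjusted p = 4.0e-04, edgeR), under the fold threshold. Without siCtrl replicate 1 of day 3 it was -0.52, and Cebpa was then called, with adjusted p-values from 2.3e-04 to 0.00348 over the 6 fits that left out 1 library. The change of the knockdown effect from day 1 to day 3 was 0.44 on the log2 scale, with an interval from 0.06 to 0.82 and an adjusted p of 0.120. It was 0.20 (adjusted p = 0.151) without siCtrl day 1 replicate 3, and it passed the adjusted p, under the fold threshold, with no filter on low counts (0.49, adjusted p = 0.00459) and with a replicate block (0.42, adjusted p = 0.0395).

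Klf15, at chr6:90462545-90479170, belongs to the Krüppel-like factors and is known for the control of the glucose transporter Slc2a4 and of glucose and amino acid metabolism. At day 1 it was almost absent, with 16, 5 and 4 counts in the siCtrl libraries and 6, 7 and 11 counts in the siPRMT1 libraries. Summed over libraries this was 0.294 CPM (counts scaled to library total; exact Poisson 95% interval 0.190 to 0.434) in siCtrl and 0.322 CPM (0.207 to 0.480) in siPRMT1 cells, so at day 1 no difference was detectable at this depth, and the gene stayed under the filter on low counts. These intervals cover counting error only. The siCtrl library with 16 counts was also the deepest of all, at 42357137 total counts. At day 3 the siCtrl libraries had 307, 238 and 392 counts, or 2.81, 2.90 and 3.02 FPKM, and the siPRMT1 libraries had 163, 156 and 156 counts, or 1.39, 1.10 and 1.16 FPKM. All siPRMT1 libraries were below all siCtrl libraries. The mean FPKM fell by 58.2%, and the log2 fold change was -1.27 (SE 0.114, interval -1.51 to -1.03, adjusted p = 4.2e-06, edgeR). Only 70 of the 14039 genes tested at day 3 had a lower log2 fold change than Klf15. It was called under all 9 alternative settings of that comparison and in all 6 fits that left out 1 library.

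The knockdown effect on Klf15 differed between the days by -1.34 on the log2 scale (SE 0.392, adjusted p = 0.0370, edgeR, all 12 libraries), which made it the 1 member of 8 called lower in this interaction, against 3.47% of 14612 genes, while 0 members were called higher, against 4.77%, also by DESeq2, with 3 higher at an unadjusted p under 0.05. Klf15 passed the filter of this fit through its day 3 counts, and the day 1 side of this difference rests on 25 and 24 counts. In 12 fits that each left out 1 library, the difference ran from -1.79 to -1.04 and the call was lost in 7: without siCtrl day 1 replicate 2 (adjusted p = 0.0746), siPRMT1 day 1 replicates 1 and 3 (0.0543 and 0.221), siCtrl day 3 replicates 2 and 3 (0.0672 and 0.0568) and siPRMT1 day 3 replicates 2 and 3 (0.0646 and 0.0560). It was called by DESeq2, at an adjusted p of 0.0268.

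**Figure D2:**
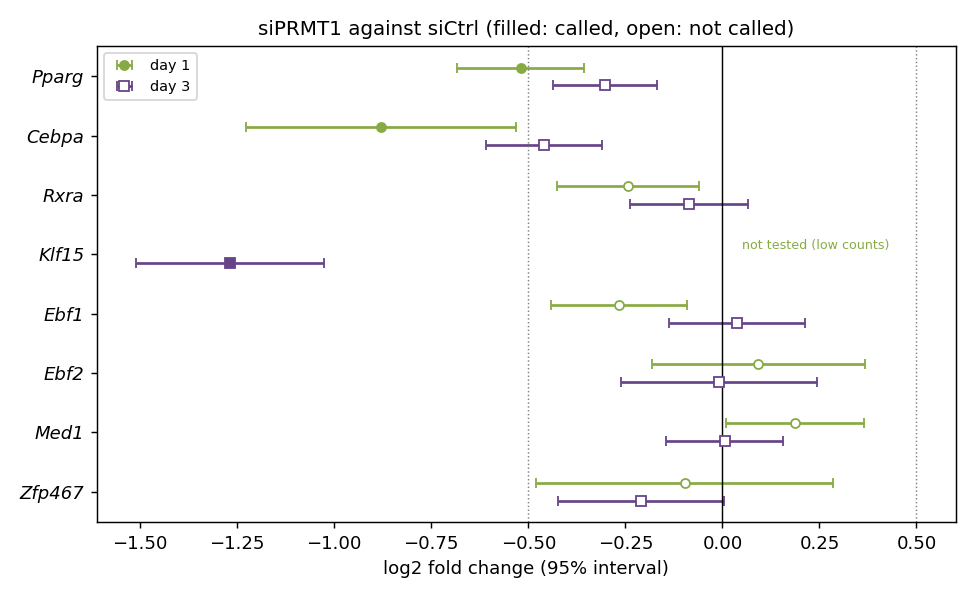
Log2 fold change of siPRMT1 against siCtrl (horizontal axis) for each member at day 1 (green circles) and day 3 (violet squares), with bars for the 95% interval of edgeR's fit. Filled symbols are called, open symbols are not, and dotted lines mark the fold threshold of 0.5. Klf15 at day 3 lies lowest at -1.27, Pparg and Cebpa lie below 0 at both days, and the day 3 intervals of Rxra, Ebf1, Ebf2, Med1 and Zfp467 include 0.

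Rxra, the dimer partner, lies at chr2:27676445-27763319. It was at 91.34, 94.97 and 112.7 FPKM in siCtrl and at 90.2, 84.0 and 87.1 FPKM in siPRMT1 cells at day 1, so the groups lay next to each other without overlap. Its log2 fold change was -0.24 (interval -0.43 to -0.06, adjusted p = 0.107, edgeR), which did not pass the test. Without siCtrl replicate 3, which had the 112.7 FPKM, it was smaller, at -0.15, with an adjusted p of 0.0343, and with all 12 libraries in 1 model it was -0.28 with an adjusted p of 0.0371; it was not called in either. Over all alternatives its adjusted p ran from 0.0343 to 0.345. At day 3 it was at 86.1, 91.1 and 85.0 FPKM in siCtrl and at 76.4, 84.1 and 87.6 FPKM in siPRMT1 cells, and the groups overlapped. A log2 fold change of -0.09 had an interval from -0.24 to 0.07, which does not reach the size measured for Cebpa or Pparg on that day.

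Ebf1, at chr11:44618100-45008096, was at 21.9, 20.1 and 18.9 FPKM in siCtrl and at 17.2, 17.5 and 17.9 FPKM in siPRMT1 cells at day 1. The siPRMT1 libraries were all lower, by a log2 fold change of -0.27 (interval -0.44 to -0.09), with an adjusted p of 0.0736 that missed the threshold. The adjusted p was 0.0358 in DESeq2, 0.0245 with all 12 libraries in 1 model and 0.00135 without siCtrl replicate 3, with changes from -0.28 to -0.32, and 0.215 at most over the alternatives, so Ebf1 was not called in any of them. At day 3 the siCtrl libraries were at 15.8, 15.7 and 13.0 FPKM and the siPRMT1 libraries, at 15.61, 15.04 and 15.15 FPKM, lay within that range. By then it had a log2 fold change of 0.04, with an interval from -0.14 to 0.21. The difference between the days, 0.32, had an adjusted p of 0.0783, and of 0.0263 (0.34) without siCtrl day 1 replicate 3.

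Ebf2, the family member known for brown and beige fat, at chr14:67233292-67430952, had 1.05, 1.05 and 0.96 FPKM in siCtrl and 1.12, 1.22 and 1.03 FPKM in siPRMT1 cells at day 1. At day 3 it had 2.50, 1.99 and 1.88 FPKM in siCtrl and 2.30, 2.11 and 1.95 FPKM in siPRMT1 cells. The groups overlapped at both days, and the log2 fold changes of 0.09 (interval -0.18 to 0.37) and -0.01 (interval -0.26 to 0.24) did not pass the test. Ebf2 was the only member with overlapping genes in the table, Gm6878, 4930438E09Rik and Gm10860 on the opposite strand. These had at most 3 counts in a library, against 117 to 317 counts of Ebf2.

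Med1, at chr11:98152154-98193314, was the only member with all siPRMT1 libraries above all siCtrl libraries at day 1. It was at 15.6, 16.0 and 13.8 FPKM in siCtrl and at 17.7, 18.0 and 17.9 FPKM in siPRMT1 cells. A log2 fold change of 0.19 (interval 0.01 to 0.36) had an adjusted p of 0.184 and was not called. At day 3 the values were 15.9, 14.7 and 13.9 FPKM in siCtrl and 14.9, 14.5 and 15.5 FPKM in siPRMT1 cells, with overlap and a log2 fold change of 0.01 (interval -0.14 to 0.16).

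Zfp467, at chr6:48427692-48446028, was at 1.63, 1.54 and 2.27 FPKM in siCtrl and at 1.81, 1.5 and 1.95 FPKM in siPRMT1 cells at day 1, with overlap and a log2 fold change of -0.10 (interval -0.48 to 0.28). Without siCtrl replicate 3, which had the 2.27 FPKM, the sign turned, to 0.07. At day 3 its values were 2.76, 2.83 and 2.76 FPKM in siCtrl and 2.22, 2.39 and 2.62 FPKM in siPRMT1 cells. All siPRMT1 libraries were then lower, and the log2 fold change of -0.21 (interval -0.42 to 0.00) had an adjusted p of 0.167 and was not called.

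**Figure D3:**
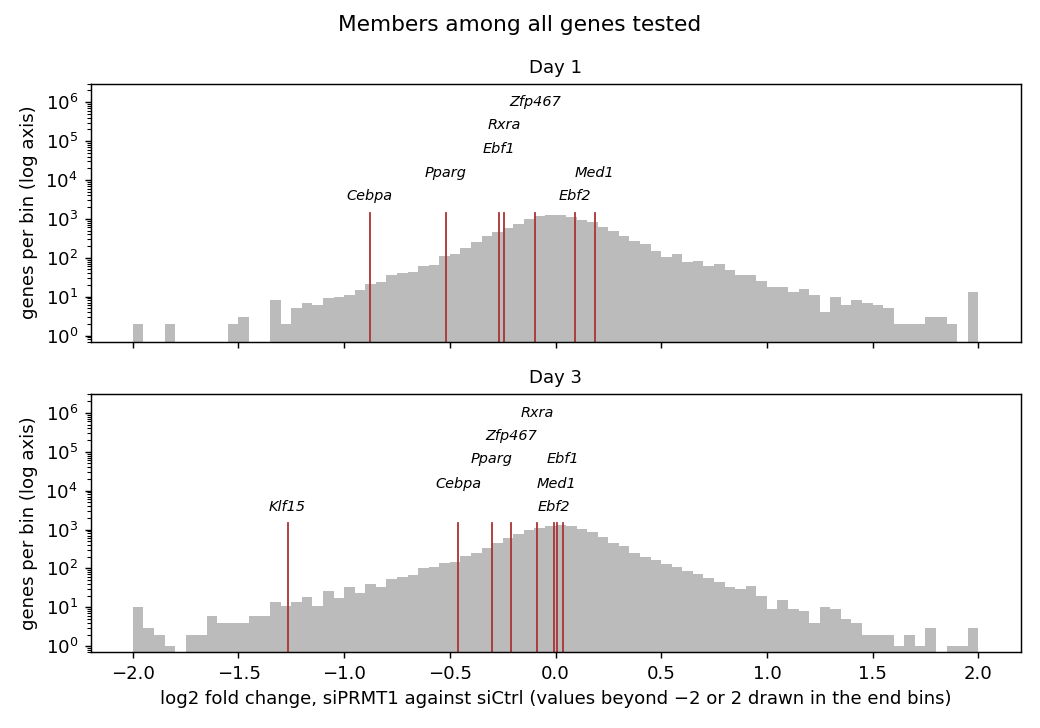
Histogram of the log2 fold changes of siPRMT1 against siCtrl over all genes tested (grey bars, genes per bin of 0.05 on a log axis), for day 1 (13689 genes) and day 3 (14039 genes), with the members marked by red lines. Cebpa at -0.88 and Pparg at -0.52 stand in the lower tail at day 1, Klf15 at -1.27 stands in it at day 3, when Cebpa lies at -0.46 and Pparg at -0.30, and Ebf2 and Med1 lie at the middle of the day 3 distribution.

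Between day 1 and day 3 in siCtrl cells, 5 of 8 members were called higher and 1 was called lower, against 22.7% and 20.4% of 13829 genes. Klf15 rose by a log2 fold change of 5.68 (SE 0.207, adjusted p = 2.1e-08, edgeR), which is 51.1-fold in the fit. It passed the filter of this fit through its day 3 counts, and the size of the fold rests on 16, 5 and 4 counts at day 1. In limma the Klf15 change was 1.90 on log2(FPKM + 1) and 4.37 with a pseudocount of 0.1. Pparg rose 4.02-fold (log2 2.01, SE 0.080) and Cebpa rose 3.80-fold (log2 1.93, SE 0.154). Ebf2 also rose, by 0.99, and Zfp467 by 0.55, while Ebf1 fell by 0.52 on the log2 scale. Zfp467 lost its call without siCtrl day 1 replicate 1 (0.46), day 1 replicate 2 (0.43) or day 3 replicate 2 (0.48), and Ebf1 lost it without day 1 replicate 1 or day 3 replicate 3 (-0.48 each). Rxra had a log2 fold change of -0.26 that passed the adjusted p (0.0332) but not the fold threshold. Without siCtrl day 1 replicate 3 it was -0.17 (adjusted p = 0.0355), and without day 3 replicate 3 its adjusted p was 0.0513. Med1 had a log2 fold change of -0.10 (adjusted p = 0.355).

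In siPRMT1 cells, 4 of 8 members were called higher at day 3 than at day 1 and 0 were called lower, also by DESeq2, against 19.0% and 17.4% of 14224 genes; 2 were lower at an unadjusted p under 0.05. The 4 were Klf15 (log2 4.32, SE 0.221, 20.0-fold), Cebpa (2.36, SE 0.066), Pparg (2.24, SE 0.056) and Ebf2 (0.90, SE 0.108). Klf15 passed the filter of this fit through its day 3 counts. Its value rests on 6, 7 and 11 counts at day 1, and was 1.06 in limma on log2(FPKM + 1) without a filter. Ebf1, at -0.21, and Med1, at -0.27, were lower at the adjusted p alone, which 31.2% of genes were. Zfp467, at 0.45, was higher at the adjusted p alone, and Rxra had a log2 fold change of -0.09 (adjusted p = 0.217). The comparisons of a day share libraries with those of the siRNA, so their values are not independent of each other.

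**Figure D4:**
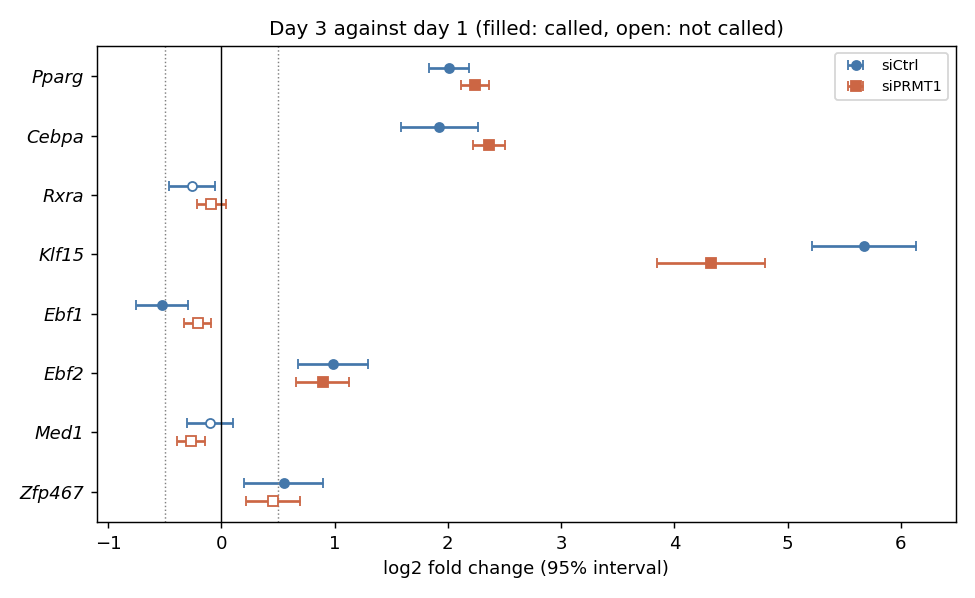
Log2 fold change of day 3 against day 1 (horizontal axis) for each member in siCtrl (blue circles) and siPRMT1 cells (orange squares), with 95% intervals from edgeR. Filled symbols are called, open symbols are not, and dotted lines mark the fold threshold of 0.5. Klf15, with 4 to 16 counts in a library at day 1, shows the widest gap between the siRNAs (5.68 and 4.32). Pparg and Cebpa rise by log2 amounts from 1.93 to 2.36, and Rxra, Ebf1 and Med1 lie below 0.

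The order of the members by FPKM, a measure per length, changed with the day. At day 1 Rxra was the highest in both siRNAs, at 99.7 FPKM in siCtrl and 87.1 FPKM in siPRMT1 cells, followed by Pparg at 26.6 and 19.2 FPKM. At day 3 Pparg was the highest, at 112 and 91.4 FPKM, followed by Rxra at 87.4 and 82.7 FPKM and Cebpa at 75.1 and 54.9 FPKM. In these places no library of a gene overlapped with one of the next gene in the order. Cebpa stood below Ebf1 at day 1 and above it at day 3 in both siRNAs, although at day 1 in siCtrl cells the ranges of Cebpa and Ebf1 overlapped. Med1 and Ebf1 overlapped at day 3 in both siRNAs and at day 1 in siPRMT1 cells. Klf15 was the last of the 8 at day 1. At day 3 it reached the sixth place in siCtrl cells, where it overlapped with Zfp467, and was again the last in siPRMT1 cells, below Ebf2 without overlap.

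The genes that PPARγ and C/EBPα are known to activate were taken as a list of 32, chosen with earlier results of these data known. At day 1, 22 of them were tested, 5 were called lower and 0 higher, by DESeq2 7 and 0, and the median log2 fold change was -0.38, against 0.01 over all genes tested. By edgeR, 1.61% of all genes were called lower and 1.95% higher at that day. At day 3, 15 of 28 were called lower and 0 higher, by DESeq2 13 and 0 (at either day 0 were higher at an unadjusted p under 0.05), with a median of -0.55 against 0.01. The shares of all genes called by edgeR at day 3 were 3.8% lower and 2.84% higher. Shares by DESeq2 are not given, so its counts of 7 and 13 have no background here. In siCtrl cells all 28 tested were called higher at day 3 than at day 1, against 22.7% of 13829 genes. Targets near 0 FPKM at day 1, such as Adipoq and Cfd, passed the filter of this fit through their day 3 counts. A call of such genes as higher follows from that filter. At day 1 the called genes with the smallest p were Fabp5, a fatty acid binding protein (68.7 ± 1.49 FPKM with siCtrl against 43.8 ± 2.50 with siPRMT1, SD over 3 libraries; log2 fold change -0.70, adjusted p = 0.00302, edgeR), Pnpla2, the first lipase of triglyceride breakdown (-0.85, adjusted p = 0.0115), and Nr1h3, which encodes the oxysterol receptor LXRα (-0.64, adjusted p = 0.0305). At day 3 they were Scd1, the stearoyl-CoA desaturase, Gpd1, which makes glycerol 3-phosphate, and Cfd, which encodes adipsin. Scd1 stood at 464 ± 19.5 FPKM in siCtrl and 216 ± 19.7 in siPRMT1 cells (log2 fold change -1.11, adjusted p = 6.9e-07, edgeR), Gpd1 at 134 ± 16.4 and 63.7 ± 5.15 FPKM (-1.08, 2.5e-06), and Cfd at 123 ± 10.4 and 61.5 ± 7.44 FPKM (-1.01, 4.6e-06). The groups did not overlap for these 6 genes at the days named. The day 1 count of 5 fell to 2 without siCtrl replicate 2 or siPRMT1 replicate 1 and to 1 without siPRMT1 replicate 2 or 3. Slc2a4, the glucose transporter named above, was at 1.48 FPKM in siCtrl and 1.02 FPKM in siPRMT1 cells at day 3 (log2 fold change -0.56, adjusted p = 0.0115, edgeR). That is close to the day 3 median of the list, -0.55, and a link to Klf15 was not tested.

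The lists that follow are set against all genes tested by edgeR. Of these, 1.61% were called lower and 1.95% higher at day 1, and 3.8% and 2.84% at day 3. At day 3, 8.94% were lower at the adjusted p alone. The other counts below at the adjusted p alone, at an unadjusted p or by DESeq2 have no share of all genes beside them. Of 24 relatives of the members (other PPAR, C/EBP, RXR, KLF and EBF genes and zinc finger partners), 0 of 19 tested were called lower at day 1 by edgeR or DESeq2 (1 at an unadjusted p under 0.05) and 2 were called higher. These were Ddit3, a C/EBP relative induced by stress (14.4 ± 0.439 FPKM in siCtrl and 24.0 ± 0.810 in siPRMT1 cells, log2 fold change 0.69, adjusted p = 0.00302, edgeR), and Klf4, a factor of early adipogenesis (9.19 ± 0.634 and 16.2 ± 0.358 FPKM, 0.77, 0.00302). At day 3, 0 of 20 were called lower by edgeR or DESeq2 (2 at an unadjusted p under 0.05) and 1 was called higher, Zfp521, an antagonist of EBF proteins (3.88 ± 0.199 and 5.54 ± 0.791 FPKM, 0.51, adjusted p = 0.00247). Cebpb and Cebpd, the activators of Pparg and Cebpa, did not pass the test, with 0.35 and 0.09 on the log2 scale at day 1 and -0.16 and -0.01 at day 3. Among 32 genes of Mediator subunits other than Med1, of which 31 were tested, 0 were called lower and 0 higher at either day by edgeR or DESeq2, with log2 fold changes from -0.28 to 0.50 at day 1 and from -0.35 to 0.38 at day 3. At the adjusted p alone, 1 was lower and 1 higher at day 1, and 2 were lower and 2 higher at day 3, while at an unadjusted p under 0.05 these numbers were 3 and 1 at day 1 and 2 and 4 at day 3. Among 24 coregulators of nuclear receptors, of which 23 were tested, 0 were called at day 1 by edgeR or DESeq2 (3 lower and 3 higher at an unadjusted p under 0.05) and 1 at day 3, Ppargc1a, which encodes the coactivator PGC-1α (0.410 ± 0.066 FPKM in siCtrl and 0.603 ± 0.029 in siPRMT1 cells, log2 fold change 0.55, adjusted p = 0.0117, edgeR).

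The genes whose course over the 12 libraries was most like that of a member were found by the root-mean-square difference of log2 CPM after each gene was centred on its own mean, over 9318 genes. For Pparg they were Lrig1 (0.10), C3 (0.11) and Car5b (0.12), where the median of all genes was 1.10. For Cebpa they were S100a16 (0.07), Aoc3 (0.08) and Adck3 (0.15), with a median of 1.16. For Klf15 the closest genes were farther off: Mgll (0.38), Sort1 (0.39) and Dgat2 (0.39), with a median of 2.45. In siPRMT1 against siCtrl cells at day 3, Mgll stood at -0.85, Sort1 at -0.62 and Dgat2 at -0.82 on the log2 scale. Mgll encodes the monoglyceride lipase, and Dgat2 completes triglyceride synthesis. Because the 3 genes were picked over these same libraries, a lower value at day 3 follows from the choice. These likenesses are descriptions over libraries that share 4 conditions.

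Some markers of the adipocyte and preadipocyte states moved with the siRNA at day 3, when Pparg, Cebpa and Klf15 were lower. The 9 adipocyte markers are also in the list of target genes. At day 3 their summed FPKM was 2817 to 3073 in siCtrl and 2164 to 2373 in siPRMT1 libraries. Of 8 tested, 4 were called lower (Adipoq, Cfd, Cidec and Plin1), against 3.8% of all genes. Lpl, Cd36 and Retn were lower at the adjusted p alone (-0.485, -0.35 and -0.418), and Fabp4 did not pass (-0.131, adjusted p = 0.340, edgeR). The sum of 8 preadipocyte markers was 483.6 to 527.2 in siCtrl and 611.7 to 697.1 in siPRMT1 libraries. Of these 8, 2 were called higher (Ly6a and Pdgfra), against 2.84% of all genes. Pdgfrb and Col1a2 were higher at the adjusted p alone (0.411 and 0.459). Thy1, Col1a1 and Cd34 (0.109, 0.154 and 0.823) and Dlk1, which was lower (-0.07), did not pass the test. At day 1 the adipocyte sum was 103 to 114 and 82.9 to 95.9 FPKM, with Lep at 0. Of 6 adipocyte markers tested then, 2 were called lower (Cd36 and Cidec, log2 fold changes -0.65 and -0.90), against 1.61% of all genes. The preadipocyte sum at day 1 was 1478 to 1558 and 1363 to 1398 FPKM, with 0 of 8 called, and Pdgfra and Col1a2 lower at the adjusted p alone (-0.23 and -0.21). In these bulk libraries fewer differentiated cells and less RNA of a gene per cell cannot be told apart, and the part of this shift in the fall of Pparg, Cebpa and Klf15 was not tested. Markers of other cell types were low, but some moved with the siRNA at day 3. The 5 macrophage markers summed to 3.64 to 5.81 FPKM over all libraries, and the 4 endothelial markers to at most 0.88 FPKM. Muscle and epithelial sums reached 6.54 and 6.57 FPKM at day 3, carried by Des and Krt14, with Myod1 at 0 and Epcam at most 0.02 FPKM. Des was called lower with siPRMT1 at day 3 (6.45 against 3.80 FPKM, log2 fold change -0.77, adjusted p = 4.2e-05, edgeR), as was Cdh5 (0.253 against 0.110 FPKM, -1.19, adjusted p = 0.0340), and Krt14 was lower at the adjusted p alone (-0.38). Their part in the results on the members was not tested.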

How the data were processed

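Per the labels, reads were processed with cutadapt 1.11, HISAT2 2.1.0 and RSEM 1.2.6 on mm10. The deposited counts are whole read counts per gene without normalization, and the deposited FPKM values are those counts scaled by the authors by gene length and library total, which recomputation matched within 0.005. RSEM gives estimates that need not be whole, and whether the counts are rounded estimates or come from another counter is not given in the sources used here. The strand setting and treatment of reads mapping to several places are not given in the sources used here. Across the 12 pairs of replicates, chi-square per gene ran from 4.14 to 50.6, so no library was a duplicate.

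Counts were tested with edgeR 4.0.16 (R 4.3.3; quasi-likelihood, TMM, filterByExpr) over all genes, for siPRMT1 against siCtrl at each day, day 3 against day 1 in each siRNA, and their interaction over 12 libraries. Benjamini-Hochberg adjustment covered all genes of a fit, and genes were called where the adjusted p was under 0.05 and the log2 fold change exceeded 0.5 in size. The alternatives were DESeq2 1.42.0, RLE normalization, no filter, at least 10 counts in every library, a replicate block, all 12 libraries in 1 model, no fold threshold, each library left out, and limma 3.58.1 on log2(FPKM + 1) with genes at a mean of at least 1 FPKM, without that filter, or with a pseudocount of 0.1. The tests were checked on simulated data with known changes. The members and gene lists were chosen with earlier results of these data known. Named are the members, Prmt1, up to 3 called genes of smallest p per list and knockdown comparison, genes overlapping a member, the 3 genes most like Pparg, Cebpa and Klf15 (prior count 2, mean of at least 10 CPM), and markers. Cebpb, Cebpd and Slc2a4 were named after their values were seen.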

Additional observations from a re-analysis of the deposited data

Results flagged for a closer look

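The knockdown effect differed between day 3 and day 1 for the following members, named genes and cell type markers, by the interaction term of edgeR's fit over all 12 libraries. For Klf15 the effect at day 3 minus that at day 1 was -1.34 on the log2 scale (adjusted p = 0.0370), with the dependence on single libraries given above. Ddit3, higher in siPRMT1 cells at day 1, had a difference of -0.92 (adjusted p = 5.8e-05), and Klf4 had one of -0.58 (adjusted p = 0.0164). For Fabp5, lower at day 1 and near the control level at day 3 (796 against 766 FPKM), the difference was 0.66 (adjusted p = 0.00235). Scd1 had -0.82 (adjusted p = 7.8e-05) and Gpd1 had -1.40 (adjusted p = 0.00288), and both were called lower at day 3 and not at day 1. Zfp521, called higher at day 3, had 0.68 (adjusted p = 0.00401). Of the genes most like a member, Mgll had -1.22 (adjusted p = 0.00216) and Aoc3 had 0.71 (adjusted p = 0.00910). Levels at day 1 were low for Gpd1 (0.517 FPKM in siCtrl and 0.67 in siPRMT1 cells) and Mgll (0.18 and 0.253 FPKM). Among the markers, Ly6a had 1.2 (adjusted p = 6.9e-05), Pdgfra 0.86 (adjusted p = 1.7e-05), Col1a2 0.69 (adjusted p = 1.4e-04) and Cd68 -0.67 (adjusted p = 0.0489). Klf15 and the markers belong to the members and gene lists, which were chosen with earlier results of these data known. The other genes were named for a change at 1 day or a likeness to a member in these same libraries. The differences between the days are therefore not independent of how the genes were chosen. Over all 14612 genes, 3.47% were called lower and 4.77% higher in this interaction. Single outlying libraries were not looked for within conditions, because a group of 3 is too small for that test.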

How the results depend on the processing

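Of 620 recomputed values of single members, 579 kept their direction and their side of the threshold, 25 were weaker, 3 were stronger and 13 had the other sign, and none of these 13 passed the test. The cause of these changes was not tested. Ebf2 at day 3 was 0.0072 without the filter, 0.0022 in limma on log2(FPKM + 1) with or without its filter and 0.0051 with a pseudocount of 0.1, and Med1 at day 3 was -0.0043 with all 12 libraries in 1 model. With 1 library left out, Zfp467 at day 1 ran from -0.1932 to 0.0726, and at day 3 Ebf1 ran from -0.0537 to 0.0895, Ebf2 from -0.0965 to 0.1122 and Med1 from -0.04 to 0.0414. The Ebf2 interaction ran from -0.1649 to 0.0467. The count of members called lower at day 1 (2) was 1, 1 and 0 in the 3 limma fits and 1 to 2 with a library left out. At day 3 (1) it was 3 without the fold threshold and 1 to 2 with a library left out. In the siCtrl course (1) it was 2 without the fold threshold, 0 in the limma fits and 0 to 1 with a library left out, and in the siPRMT1 course (0) it was 2 without the fold threshold. In the interaction (1) it was 0 with at least 10 counts in every library, where Klf15 was not tested, and 0 to 1 with a library left out. Target genes called at day 1 (5) were 9 with all 12 libraries in 1 model or without the fold threshold, 2, 3 and 1 in limma, and 1 to 6 with a library left out. At day 3 (15) they were 24 without the fold threshold and 12 to 18 with a library left out.

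Same-numbered libraries did not deviate together in every pair (correlations of their deviations from -0.42 to 0.49). Between the siRNAs at day 1, the libraries numbered 2 and 3 correlated at 0.414 and 0.474, and those numbered 1 at -0.165. With 3 libraries in a group, these correlations cannot settle whether the libraries were paired. With a replicate block, 2 members were called lower at day 1 and 1 at day 3, and Klf15 at day 3 was -1.27, so no call of a member changed, while the Cebpa interaction passed the adjusted p under the fold threshold. Depth limits Klf15 at day 1, where a library held 4 to 16 counts.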
